A study of Mus musculus with 8 samples.

Results

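The 34 genes described here mark Kupffer cells, other macrophages and monocytes, or leukocytes in general, and were taken by symbol from a table of 35638 genes. All 34 symbols were found. They were separated into 7 genes of Kupffer cells and other resident macrophages, 11 genes of macrophages and monocytes, 15 genes that are shared more widely among leukocytes, and Hpgd, which many cell types express. RNA was sequenced from frozen mouse liver at postnatal day 90, on a mixed C57/B6 and 129 background. All 8 samples were Arid1a Fl/Fl, so that both alleles of Arid1a, a subunit gene of the SWI/SNF chromatin remodelling complex, carried loxP sites. The 4 samples named WT had no further allele, and the 4 samples named KO also carried Alb-cre, a transgene in which the albumin promoter drives Cre recombinase in hepatocytes. Macrophages and other leukocytes are thus not the cells in which this Cre is designed to act. Values are FPKM, reads scaled to gene length and library size, so levels can be compared between genes.

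Kupffer cells are the resident macrophages of the liver. They sit inside the sinusoids, where they take up bacteria, complement-coated particles, aged red cells and lipoproteins, and they depend on signalling through the receptor encoded by Csf1r. When resident cells are lost or the liver is injured, monocytes from blood can enter and take on part of the Kupffer programme.

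Promoters are shown for the 3 genes that best define Kupffer cells (Clec4f, Cd5l and Vsig4), for C1qb and C1qc, neighbours in the complement C1q cluster, and for Mpeg1 and Lcp1, the markers that passed the test across all genes. Each run holds the 250 bases before an annotated start, 5′ to 3′ on the strand of the gene, from RefSeq on GRCm38.p6 (for Lcp1, the first of 2 listed starts). Capitals mark AGGAAGT or its reverse complement, the core of the motif bound by PU.1 and related ETS factors.
Clec4f (chr6:83656117-83656366, minus strand): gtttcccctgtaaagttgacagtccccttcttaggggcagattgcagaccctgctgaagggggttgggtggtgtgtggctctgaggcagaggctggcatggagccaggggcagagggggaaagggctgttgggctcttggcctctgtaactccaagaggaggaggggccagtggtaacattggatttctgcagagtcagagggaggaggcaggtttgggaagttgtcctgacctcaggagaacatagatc
Cd5l (chr3:87357631-87357880, plus strand): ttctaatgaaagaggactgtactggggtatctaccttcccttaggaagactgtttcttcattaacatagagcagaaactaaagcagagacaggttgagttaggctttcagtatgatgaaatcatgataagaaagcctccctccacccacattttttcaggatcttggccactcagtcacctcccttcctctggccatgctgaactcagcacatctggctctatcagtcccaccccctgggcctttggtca
Vsig4 (chrX:96293439-96293688, minus strand): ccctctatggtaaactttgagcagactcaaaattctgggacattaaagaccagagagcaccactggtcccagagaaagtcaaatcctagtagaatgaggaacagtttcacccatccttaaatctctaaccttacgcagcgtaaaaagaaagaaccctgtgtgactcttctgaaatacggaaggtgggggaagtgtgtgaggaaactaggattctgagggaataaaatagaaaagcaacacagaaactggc
C1qb (chr4:136886201-136886450, minus strand): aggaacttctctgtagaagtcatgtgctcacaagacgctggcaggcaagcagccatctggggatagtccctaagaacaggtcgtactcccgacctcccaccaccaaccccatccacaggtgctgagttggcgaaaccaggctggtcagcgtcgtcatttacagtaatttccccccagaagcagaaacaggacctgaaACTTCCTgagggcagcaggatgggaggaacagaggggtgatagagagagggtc
C1qc (chr4:136892915-136893164, minus strand): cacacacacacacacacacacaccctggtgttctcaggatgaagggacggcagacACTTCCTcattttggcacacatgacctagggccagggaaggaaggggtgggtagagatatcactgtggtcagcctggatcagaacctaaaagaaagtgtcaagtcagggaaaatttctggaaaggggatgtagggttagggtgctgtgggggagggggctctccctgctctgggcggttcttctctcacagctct
Mpeg1 (chr19:12460520-12460769, plus strand): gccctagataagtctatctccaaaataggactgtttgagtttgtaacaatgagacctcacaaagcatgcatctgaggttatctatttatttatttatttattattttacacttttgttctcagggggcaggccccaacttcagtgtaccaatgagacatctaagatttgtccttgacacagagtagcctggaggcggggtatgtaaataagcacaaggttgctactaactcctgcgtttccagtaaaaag
Lcp1 (chr14:75130873-75131122, plus strand): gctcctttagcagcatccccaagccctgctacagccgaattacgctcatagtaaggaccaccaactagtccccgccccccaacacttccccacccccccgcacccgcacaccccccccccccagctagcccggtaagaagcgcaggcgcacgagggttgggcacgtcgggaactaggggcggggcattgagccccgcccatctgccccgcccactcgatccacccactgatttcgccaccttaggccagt
The core was present in C1qb, 53 bases before the start, and in C1qc, 195 bases before it, and these letters were not in the other 5 windows. RefSeq windows were found for 27 of the 34 genes, with 33 starts. AGGAAGT on either strand was in 7 of the 33 windows (21.2%), against 7.69% of all 32851 windows of that length. The genes that held it were C1qb, C1qc, Fcgr1, Folr2, Lyz2 and Ptprc. The longer form GAGGAAGT, which contains it, was in 1 of 33 (3.03%) against 2.44%. AGGAAGT was chosen for display after 10 short motifs had been searched, and a match describes letters only.

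The libraries had estimated depths of 12400000 to 15200000 reads, at which 1 read of a transcript of 2 kb is worth 0.0329 to 0.0403 FPKM. Many of the markers lay within a few reads of 0. Arid1a was at 3.998 to 8.38 FPKM in WT and 2.59 to 3.46 FPKM in KO, without overlap, and did not pass the test over all genes (limma adjusted p = 0.316). Albumin (Alb), the defining transcript of hepatocytes, stood at 20104 to 31604 FPKM. Of 11266 genes tested, 46 were higher in KO (0.408%) and 40 lower (0.355%) at a limma adjusted p under 0.05. Whether the replicates are separate animals is not stated in the labels, and the p-values here refer to the spread among these samples, part of which may be technical.

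Transcripts of Kupffer cells, macrophages and leukocytes were more abundant in 3 of the 4 KO libraries than in any WT library, while KO 2 lay nearer to WT in most markers. KO 1, KO 3 and KO 4 exceeded every WT library in 33 of the 34 genes (97.1%), against 6.84% of the 27571 genes above 0 in any library. With KO 2 included, 22 of the 34 (64.7%) had no overlap between the groups, against 3.57% of those genes. The change was positive in 33 of the 34, against 51.5% of those genes, and its median was 1.06 on the log2(FPKM + 1) scale, against 0.00. KO 2 was the lowest KO library in 29 of the 34 markers (85.3%), against 29.6% of the genes above 0. Setting it apart thus favours the count over KO 1, KO 3 and KO 4, which is descriptive and no separate support. The markers were also chosen with earlier results of these data known. KO 2 was still above every WT library in 23 of the 34 (67.6%), against 16.5% of the genes above 0. Its depth estimate was the highest of the 8 libraries. In bulk tissue, more cells of a type and more RNA per cell cannot be told apart.

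**Figure D1:**
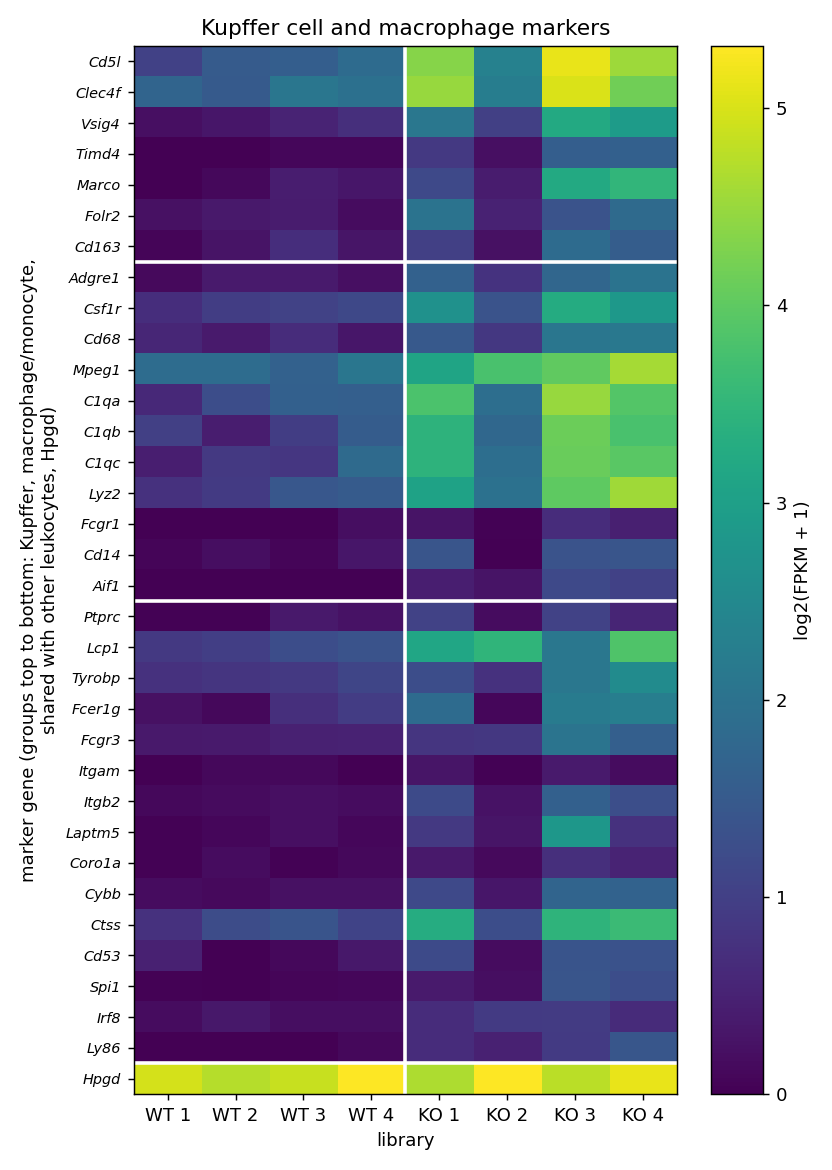
Level of each of the 34 marker genes (rows, log2(FPKM + 1) by colour) in the 4 WT and 4 KO libraries (columns), with white lines between the gene groups and between genotypes. KO 1, KO 3 and KO 4 lie above all WT libraries in 33 rows, KO 2 is the lowest KO library in 29 rows, and Hpgd is high throughout.

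By the test across all genes, 20 of the 34 markers had a mean of at least 1 FPKM over the 8 libraries and were tested, and 14 lay below. Since the KO libraries carried many of the 20 over this minimum, their number called is given only beside the background of 0.408%. Mpeg1 and Lcp1 rose (limma adjusted p = 0.0169 and 0.0344), and 0 markers fell (0 at an unadjusted limma p under 0.05). With no minimum, 0 of the 34 passed, against 0.116% of 27571 genes called higher, although 29 were higher and 0 lower at an unadjusted limma p under 0.05. With a minimum of 5 FPKM 1 was called (Mpeg1), against 0.273%. Without KO 2, 14 markers rose among 20 tested, against 0.813% of 11320 genes called higher, and 17 of 34 rose with no minimum, against 0.881% of 27250 genes. With WT 4 and KO 2 both left out, 13 rose, against 0.663% of genes. Leaving out any 1 library other than KO 2 gave 0 or 1. KO 2 was the lowest KO library in 29 of these same 34 markers, so leaving it out favours their rise. Counts and p-values without KO 2, above, here and below, are therefore descriptive and are no separate support.

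Mpeg1 (ENSMUSG00000046805, chromosome 19, 12460779 to 12465283, GRCm38) encodes perforin-2, a pore-forming protein of phagocytes. Its level was 2.66, 2.69, 2.14 and 3.23 FPKM across WT 1 to WT 4, against 7.54, 12.8, 15.2 and 23.3 FPKM across KO 1 to KO 4. All 4 KO libraries were above WT, and KO 1, not KO 2, was the lowest of them. The means were 2.68 ± 0.444 in WT and 14.7 ± 6.55 FPKM in KO (each SD over n = 4), a difference of 2.004 ± 0.29 (SE) on the log2(FPKM + 1) scale (limma adjusted p = 0.0169). The call was lost without WT 1, WT 2, WT 3 or KO 3 (limma adjusted p = 0.0556, 0.0541, 0.0653 and 0.0664), with no minimum (0.0695), and when WT 4 and KO 2 were both left out (0.0513).

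Lcp1 (ENSMUSG00000021998, chromosome 14, 75131101 to 75230842) encodes L-plastin, an actin-bundling protein of leukocytes. Its level was 0.842, 0.979, 1.40 and 1.58 FPKM across WT 1 to WT 4, against 7.84, 10.2, 3.29 and 13.4 FPKM across KO 1 to KO 4. KO 3, which held the highest level of 20 of the 34 markers, was the lowest KO library for Lcp1, and only KO 4 exceeded KO 2. The means were 1.20 ± 0.347 in WT and 8.67 ± 4.24 FPKM in KO (each SD over n = 4), a difference of 2.02 ± 0.34 (SE) on the log2(FPKM + 1) scale (limma adjusted p = 0.0344). Leaving out any 1 library other than KO 3 ended the call, with limma adjusted p of 0.0596 to 0.113, and so did no minimum (0.112) and a pseudocount of 5 FPKM (0.0806). Without KO 3 the limma adjusted p was 0.00743. Of the 2 noncoding genes on the opposite strand of Lcp1, neither exceeded 1.05 FPKM, and the use of strand in counting is not given in the sources used here.

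The 7 genes of Kupffer cells and resident macrophages summed to 3.70, 4.56, 7.09 and 6.84 FPKM across WT 1 to WT 4 and to 50.4, 9.94, 88.7 and 62.7 FPKM across KO 1 to KO 4. KO 1, KO 3 and KO 4 were far above WT, and KO 2 was above every WT library by a small margin. The mean sum in KO was 9.54 times that in WT, 12.1 times without KO 2, and 1.79 times in KO 2 alone. With all libraries 0 of the 5 tested genes passed the threshold, and 5 had an unadjusted limma p under 0.05, against 4.99% of genes higher in KO at that level. Vsig4, Marco and Folr2 reached the minimum only through KO, so nothing is read from these counts. Without KO 2, Cd5l, Clec4f, Vsig4 and Folr2 rose, against 0.813% of genes.

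Clec4f (ENSMUSG00000014542, chromosome 6, 83644542 to 83656187) encodes a C-type lectin that in mice is almost exclusive to Kupffer cells. Its level was 2.26, 1.85, 3.27 and 2.92 FPKM across WT 1 to WT 4, against 21.6, 3.79, 31.4 and 17.0 FPKM across KO 1 to KO 4. The groups did not overlap, and KO 2 stood just above WT 3. The difference was 2.17 ± 0.51 (SE) on the log2(FPKM + 1) scale (limma adjusted p = 0.114, and 0.00292 without KO 2).

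Cd5l (ENSMUSG00000015854, chromosome 3, 87357881 to 87371073) encodes a secreted scavenger-receptor protein of tissue macrophages. Its level was 1.05, 1.89, 2.02 and 2.61 FPKM across WT 1 to WT 4, against 19.4, 4.02, 34.4 and 22.2 FPKM across KO 1 to KO 4. The groups did not overlap, and the order of the KO libraries was that of the 7-gene sum. The difference was 2.59 ± 0.52 (SE) on the log2(FPKM + 1) scale, the largest among the 34 markers (limma adjusted p = 0.0692, and 0.00259 without KO 2).

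Vsig4, the gene of a complement receptor that captures opsonised bacteria, measured 0.159, 0.244, 0.442 and 0.635 FPKM across WT 1 to WT 4, against 3.30, 1.02, 8.41 and 6.57 FPKM across KO 1 to KO 4. There was no overlap (limma adjusted p = 0.104, and 0.0101 without KO 2). Folr2, which encodes folate receptor beta, ran from 0.135 to 0.331 FPKM in WT and from 0.429 to 3.08 FPKM in KO, with KO 1 highest and no overlap (limma adjusted p = 0.169, and 0.0187 without KO 2). An antisense gene overlaps Folr2.

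Timd4, a phosphatidylserine receptor gene that marks long-lived resident Kupffer cells, measured 0, 0, 0.0689 and 0.0734 FPKM across WT 1 to WT 4, against 0.845, 0.168, 2.03 and 2.09 FPKM across KO 1 to KO 4. The groups did not overlap, but the WT values are those of a few reads at most, so no fold is given. Marco, a scavenger receptor gene, was at 0 to 0.346 FPKM in WT, and KO 1 to KO 4 held 1.26, 0.331, 8.36 and 10.3 FPKM, so that KO 2 lay inside the WT range. Cd163, the receptor gene for haemoglobin bound to haptoglobin, was at 0.0583 to 0.608 FPKM in WT, and KO 1 to KO 4 held 1.004, 0.185, 2.64 and 1.97 FPKM. KO 2 again lay inside the WT range. Marco did not pass in either fit (limma adjusted p = 0.311, and 0.0728 without KO 2), and Timd4 and Cd163 were under the minimum of 1 FPKM.

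**Figure D2:**
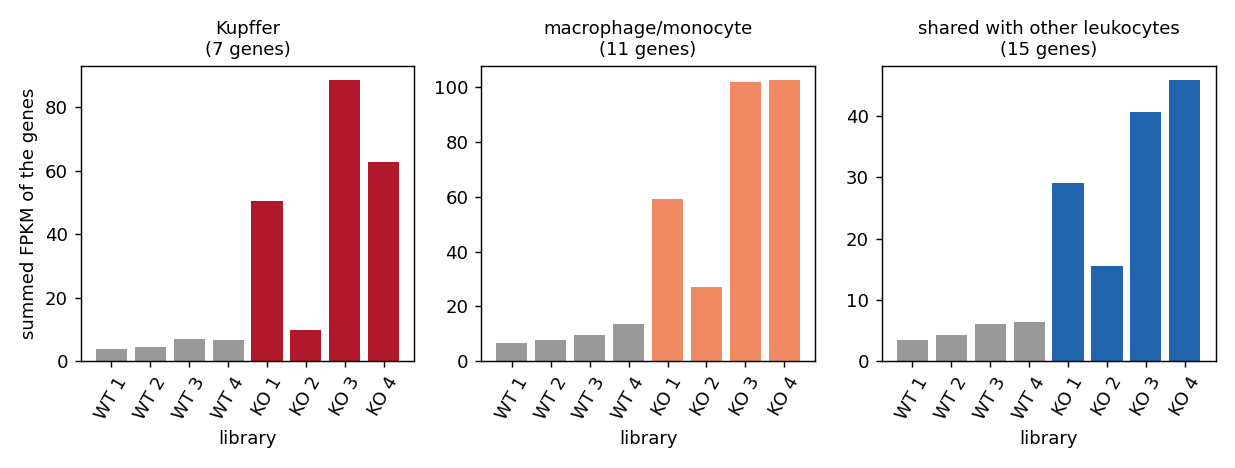
Summed FPKM (bars, each panel with its own axis from 0) of the 7 Kupffer genes, the 11 macrophage and monocyte genes and the 15 genes shared with other leukocytes in each library. KO 1, KO 3 and KO 4 stand far above WT in each panel, while KO 2 reaches 9.94, 27.1 and 15.6 FPKM.

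The 11 genes of macrophages and monocytes summed to 6.49, 7.85, 9.71 and 13.7 FPKM across WT 1 to WT 4 and to 59.3, 27.1, 102 and 103 FPKM across KO 1 to KO 4. KO 2 was at 2.87 times the WT mean, and 12.8 of its 27.1 FPKM were Mpeg1. The ratio of the mean sums was 7.70, and 9.32 without KO 2. Of the 8 tested genes 1 passed (Mpeg1), against 0.408% of genes, 8 had an unadjusted limma p under 0.05, against 4.99%, and 8 rose without KO 2, against 0.813%. Adgre1, Csf1r and Cd68 reached the minimum only through KO.

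The 3 genes of the complement component C1q, which macrophages secrete, lie side by side on chromosome 4, between 136880129 and 136898803, 3.12 to 3.14 Mb from Arid1a. C1qa was at 0.527 to 2.10 FPKM in WT, and KO 1 to KO 4 held 13.01, 2.76, 21.6 and 13.9 FPKM. C1qb was at 0.340 to 1.94 FPKM in WT and C1qc at 0.365 to 2.59 FPKM, and their KO levels were 9.84, 2.44, 16.5 and 12.8 FPKM and 9.89, 2.76, 16.2 and 14.5 FPKM. The 3 chains kept 1 order of KO libraries, with KO 3 highest and KO 2 lowest, and none overlapped WT. The differences were 2.25 ± 0.50, 2.30 ± 0.47 and 2.35 ± 0.48 (SE) on the log2(FPKM + 1) scale. The limma adjusted p was 0.0997, 0.0745 and 0.0745, and 0.00618, 0.00530 and 0.00853 without KO 2. With array weights, which give each library its own weight, C1qc passed with all 8 libraries (limma adjusted p = 0.0490).

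Lyz2, a lysozyme gene of macrophages that neutrophils also express, measured 0.690, 0.876, 1.73 and 1.87 FPKM across WT 1 to WT 4, against 7.31, 2.95, 14.9 and 22.7 FPKM across KO 1 to KO 4. There was no overlap (limma adjusted p = 0.0955, and 0.0141 without KO 2), and reads can be shared with its close copy Lyz1, so its level is uncertain. Csf1r, the receptor gene on which Kupffer cells depend, was at 0.610 to 1.23 FPKM in WT, and KO 1 to KO 4 held 5.45, 1.58, 8.63 and 6.09 FPKM (limma adjusted p = 0.110, and 0.00673 without KO 2). KO 2 was the nearest to WT for both, and Csf1r overlaps Hmgxb3 on the opposite strand. Adgre1, which encodes an adhesion receptor used to stain mouse macrophages, ran from 0.0961 to 0.307 FPKM in WT and from 0.722 to 3.06 FPKM in KO (limma adjusted p = 0.0738, and 0.00853 without KO 2). Cd68, a lysosomal glycoprotein gene, ran from 0.255 to 0.588 FPKM in WT and from 0.819 to 3.39 FPKM in KO (limma adjusted p = 0.136, and 0.0252 without KO 2). In neither did the groups overlap.

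Aif1, a calcium-binding protein gene of macrophages, was listed at 0 in all 4 WT libraries, and KO 1 to KO 4 held 0.371, 0.212, 1.26 and 1.05 FPKM. Cd14, a co-receptor gene for lipopolysaccharide, was at 0.0463 to 0.251 FPKM in WT, and KO 1 to KO 4 held 1.66, 0, 1.57 and 1.63 FPKM. KO 2 was the only library of the 8 in which Cd14 was listed at 0. Fcgr1, a high-affinity IgG receptor gene, was listed at 0 in 3 WT libraries and reached at most 0.589 FPKM. All 3 genes were under the minimum of 1 FPKM.

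The 15 genes that other leukocytes share summed to 3.53, 4.25, 6.08 and 6.42 FPKM across WT 1 to WT 4 and to 29.1, 15.6, 40.7 and 45.9 FPKM across KO 1 to KO 4. KO 2 was again the lowest of KO and above all of WT, and 10.2 of its 15.6 FPKM were Lcp1. The ratio of the mean sums was 6.48, or 7.61 without KO 2. Of 6 tested genes 1 passed (Lcp1), against 0.408% of genes, 5 had an unadjusted limma p under 0.05, against 4.99%, and Ctss and Fcer1g rose without KO 2, against 0.813%. Tyrobp, Fcer1g, Fcgr3 and Laptm5 reached the minimum only through KO.

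Ctss, the gene of cathepsin S, a lysosomal protease of antigen presentation, measured 0.693, 1.37, 1.62 and 1.11 FPKM across WT 1 to WT 4, against 8.78, 1.37, 9.96 and 11.3 FPKM across KO 1 to KO 4. KO 2 was inside the WT range, and the other 3 KO libraries were close to each other (limma adjusted p = 0.164, and 0.00292 without KO 2). Fcer1g, the signalling chain gene of Fc receptors, was at 0.0839 to 0.912 FPKM in WT, and KO 1 to KO 4 held 2.61, 0.0667, 3.65 and 3.84 FPKM. KO 2 was the lowest of all 8 libraries for this gene (limma adjusted p = 0.450, and 0.0244 without KO 2). Fcgr3, an IgG receptor gene whose reads can be shared with close copies, ran from 0.294 to 0.428 FPKM in WT and from 0.770 to 3.12 FPKM in KO (limma adjusted p = 0.255, and 0.183 without KO 2). The adaptor gene Tyrobp ran from 0.685 to 1.17 FPKM in WT and from 0.684 to 4.95 FPKM in KO (limma adjusted p = 0.530, and 0.212 without KO 2). Fcgr3 did not overlap between the groups, whereas for Tyrobp KO 2 lay just below the lowest WT library.

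Laptm5, a lysosomal membrane protein gene of blood cells, was at 0.0245 to 0.163 FPKM in WT, and KO 1 to KO 4 held 0.840, 0.237, 6.04 and 0.690 FPKM, so KO 3 alone held most of its signal (limma adjusted p = 0.484). Ptprc, which encodes CD45 on leukocytes, was at 0.0161 to 0.290 FPKM in WT, and KO 1 to KO 4 held 1.06, 0.127, 1.07 and 0.458 FPKM. KO 2 was within the WT range. Cybb, the gene of the catalytic subunit of the phagocyte oxidase, ran from 0.1005 to 0.181 FPKM in WT and from 0.244 to 2.27 FPKM in KO. Itgb2, the integrin beta chain of leukocytes, ran from 0.0774 to 0.170 FPKM in WT and from 0.192 to 2.09 FPKM in KO. Neither overlapped between the groups. Both, with Timd4, Cd14 and Cd53, rose with KO 2 left out and no minimum (limma adjusted p = 0.0178 to 0.0459).

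Spi1, which encodes PU.1, a transcription factor that macrophages need to form, was at 0 to 0.0628 FPKM in WT, and KO 1 to KO 4 held 0.310, 0.154, 1.63 and 1.39 FPKM. Irf8, a further transcription factor gene of the monocyte lineage, measured 0.138, 0.271, 0.154 and 0.154 FPKM across WT 1 to WT 4, against 0.592, 0.879, 0.898 and 0.565 FPKM across KO 1 to KO 4. KO 2 was close to the highest library for Irf8 and the lowest of KO for Spi1, and neither gene overlapped between the groups. Irf8 lies within Gm20388, an annotated gene at 3.71 to 7.56 FPKM over the 8 libraries, so reads can be shared. Ly86, which encodes a partner of a Toll-like receptor homologue, was listed at 0 in WT 1 to WT 3 and ran from 0.398 to 1.66 FPKM in KO. The tetraspanin gene Cd53 (at most 1.59 FPKM), the actin regulator gene Coro1a (at most 0.636 FPKM) and the integrin alpha chain gene Itgam (at most 0.297 FPKM) overlapped between the groups through KO 2 alone. Coro1a overlaps Bola2, a gene on the opposite strand at 3.02 to 7.65 FPKM, and a second annotated Itgam gene, not analysed here, overlaps the one listed.

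Hpgd, which encodes an enzyme that inactivates prostaglandins, measured 30.5, 25.5, 28.3 and 38.8 FPKM across WT 1 to WT 4, against 24.4, 38.8, 26.2 and 34.3 FPKM across KO 1 to KO 4. The groups overlapped throughout, with means of 30.8 ± 5.73 in WT and 30.9 ± 6.79 FPKM in KO (each SD over n = 4). The difference was -0.00 ± 0.21 (SE) on the log2(FPKM + 1) scale (limma adjusted p = 0.999). Hpgd was the most abundant of the 34 in every WT library.

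**Figure D3:**
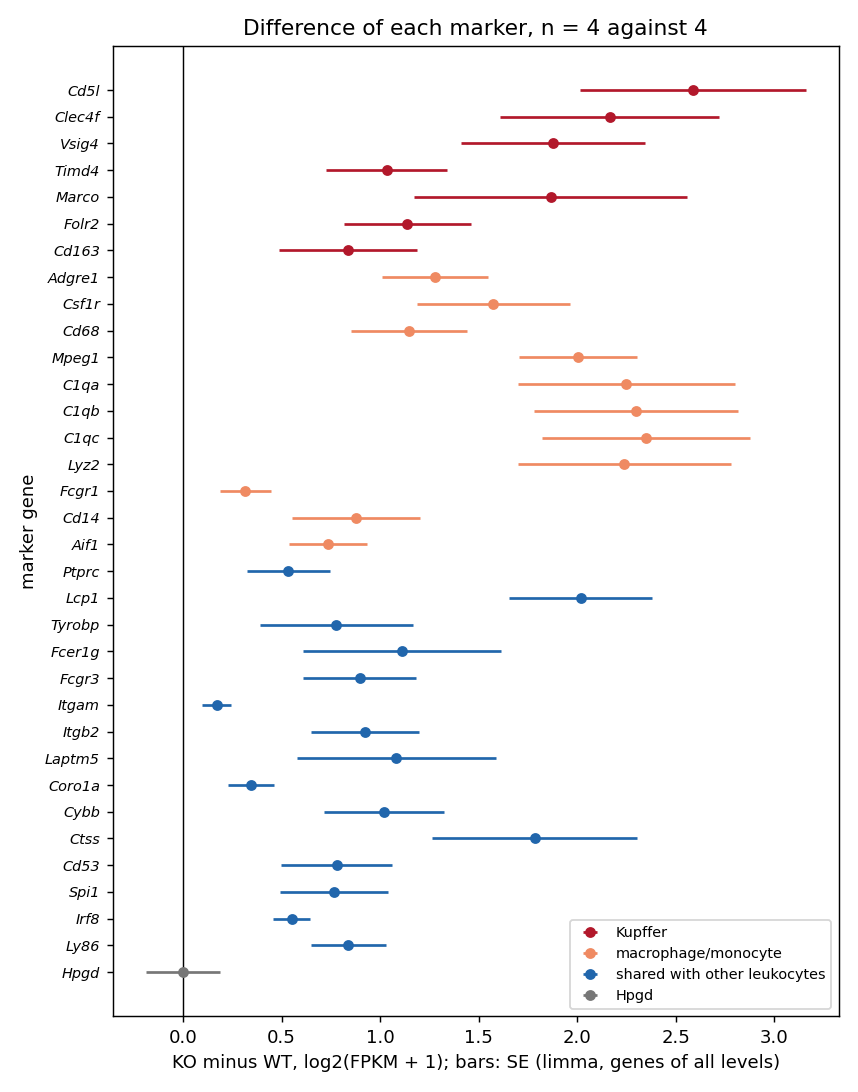
KO minus WT difference of each marker on the log2(FPKM + 1) scale (points) with its SE (bars), from the limma fit over all 27571 genes above 0, n = 4 against 4, coloured by gene group. Every marker other than Hpgd lies to the right of 0, from 0.17 for Itgam to 2.59 for Cd5l.

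How far the 3 gene groups differed from each other depended on the scale. The mean log2(FPKM + 1) of the Kupffer genes was 0.67 ± 0.17 in WT and 2.31 ± 0.93 in KO (SD, n = 4 per group), a difference of 1.64. For the macrophage and monocyte genes it was 0.75 ± 0.18 in WT and 2.30 ± 0.69 in KO, a difference of 1.55, and for the shared leukocyte genes 0.36 ± 0.08 in WT and 1.27 ± 0.47 in KO, a difference of 0.91. The pseudocount of 1 FPKM compresses low genes most, and with 0.1 FPKM the differences were 2.77, 2.50 and 2.001. The sum of the Kupffer genes divided by that of the leukocyte genes was 1.05 to 1.17 in WT and 1.73, 0.637, 2.18 and 1.37 in KO 1 to KO 4. KO 2 was below WT in this ratio through Lcp1: without that gene, left out after its values were seen, the ratio was 1.38 to 1.51 in WT and 2.37, 1.83, 2.37 and 1.93 in KO 1 to KO 4, above WT in all 4 KO libraries.

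Transcripts of other cells of the liver sinusoid also had higher levels in KO. All 14 sinusoidal endothelial markers had a positive change, against 51.5% of all genes above 0. KO 1, KO 3 and KO 4 exceeded every WT library in 13 of the 14, against 6.84%, and 8 had no overlap between the groups, against 3.57%. The sums were 4.65 to 12.1 FPKM in WT and 43.3, 20.8, 42.9 and 34.04 FPKM in KO 1 to KO 4. Of 11 tested 1 rose, against 0.408% of genes, and 11 had an unadjusted limma p under 0.05, against 4.99% of genes higher in KO at that level. Most of the 11 reached the minimum only through KO. The 1 that rose was Dnase1l3, a secreted nuclease gene, with 0.542, 0.501, 0.818 and 0.584 FPKM in WT and 4.31, 1.51, 3.30 and 3.43 FPKM in KO (limma adjusted p = 0.0452). That call was lost without any 1 library other than KO 2 (limma adjusted p up to 0.137), and with no minimum (0.118), which the gene reached only through KO. Without KO 2 the limma adjusted p was 0.00853. All 10 stellate cell markers had a positive change too, and 9 had no overlap between the groups, against 3.57%. Their sums were 4.86 to 10.9 FPKM in WT and 37.9, 18.5, 18.0 and 28.9 FPKM in KO 1 to KO 4. Of 4 tested 0 passed, against 0.408% of genes, and 4 had an unadjusted limma p under 0.05, against 4.99%. Colec11, 1 of the 4, reached the minimum only through KO. The smallest p among the 4 was that of Dcn, the decorin gene (limma adjusted p = 0.0866). KO 3, highest for the Kupffer sum, was the lowest of KO for the stellate sum. The Kupffer sum divided by the endothelial sum was 0.518 to 0.796 in WT and 1.16, 0.477, 2.07 and 1.84 in KO 1 to KO 4, above every WT library in 3 of the KO libraries. KO 2 was below WT, but Fcgr2b made up 7.59 of its 20.8 FPKM of endothelial signal. Without Fcgr2b, left out after its values were seen, the ratio was 0.626 to 0.874 in WT and 1.46, 0.751, 2.61 and 2.01 in KO 1 to KO 4, with KO 2 inside the WT range. The part of these other cell types in the marker levels was not tested.

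Further genes of the Kupffer programme were followed with a list of 13. All 13 had a positive change, against 51.5% of all genes above 0, and 3 had no overlap between the groups, against 3.57%. Of 6 tested 0 passed, and 3 had an unadjusted limma p under 0.05, against 4.99%. Cd38, 1 of these 3, reached the minimum only through KO, so nothing is read from this count. Fcna, the ficolin A gene of Kupffer cells, measured 0.510, 1.41, 1.13 and 0.988 FPKM across WT 1 to WT 4, against 12.3, 2.64, 14.5 and 7.90 FPKM across KO 1 to KO 4. Its KO libraries stood in the order of those of Clec4f (limma adjusted p = 0.0507, and 0.00408 without KO 2). The genes of MHC class II presentation, which macrophages, dendritic cells and B cells share, had a positive change in 7 of 7, summing to 3.40 to 5.81 FPKM in WT and to 37.9, 10.7, 62.5 and 69.4 FPKM in KO 1 to KO 4. Of 4 tested 1 rose, against 0.408% of genes, and 4 had an unadjusted limma p under 0.05, against 4.99%. H2-Aa, H2-Ab1 and H2-Eb1 reached the minimum only through KO, so nothing is read from these counts. The 1 that rose was H2-Aa, which encodes a class II alpha chain, with 0.221, 0.628, 0.370 and 0.372 FPKM in WT and 7.39, 2.33, 10.9 and 13.1 FPKM in KO (limma adjusted p = 0.0219). The call was lost without any 1 library other than KO 2 (limma adjusted p up to 0.0784), and with no minimum (0.0992), which the gene reached only through KO. Without KO 2 the limma adjusted p was 0.00135.

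Many genes of recruited monocytes and of other leukocytes were at or near 0. All 12 markers of monocytes and recruited macrophages had a positive change, against 51.5% of all genes above 0, 2 of them without overlap, against 3.57%, and 6 were listed at 0 in all WT libraries, among them Ly6c2 and Ccr2, whose highest KO values were 0.240 and 0.127 FPKM. The sums were 2.78 to 12.0 FPKM in WT and 2.61 to 16.9 FPKM in KO, and overlapped, most of the signal being Cd9. Without Cd9, left out after its values were seen, they were 0.371 to 1.34 FPKM in WT and 3.15, 1.18, 6.19 and 5.64 FPKM in KO 1 to KO 4, with KO 2 alone inside the WT range. Plac8 had the smallest p of the 2 tested (limma adjusted p = 0.219, and 0.0392 without KO 2), and reached the minimum only through KO. The sums of 9 neutrophil markers were 0 to 0.196 FPKM in WT and 0.220 to 1.30 FPKM in KO, without overlap. Of the 9, 7 had a positive change, against 51.5%. But 6 of the 9 were listed at 0 in all WT libraries, where no negative change was possible, and 1 of these was at 0 in every library. The sums of 10 T and NK cell markers were 0.0430 to 0.218 FPKM in WT and 0.191 to 0.568 FPKM in KO, and those of 6 dendritic cell markers 0.272 to 0.610 FPKM and 0.484 to 1.55 FPKM, both with an overlap. All 6 dendritic cell markers had a positive change, against 51.5%, but 3 were listed at 0 in all WT libraries. The 2 without overlap, against 3.57%, were Xcr1 and Clec9a, a receptor gene of a dendritic cell subset. Clec9a was at 0 to 0.0244 FPKM in WT and 0.149 to 0.569 FPKM in KO, and Xcr1 at most at 0.0304 FPKM. Zbtb46, the most abundant of the 6, overlapped, with means of 0.420 FPKM in WT and 0.461 FPKM in KO. None of these 3 lists had a gene at the minimum. The 9 B and plasma cell markers summed to 0.581 to 1.62 FPKM in WT and 12.8, 0.928, 7.61 and 6.31 FPKM in KO 1 to KO 4. Of the 9, 8 had a positive change, against 51.5%, but 3 were listed at 0 in all WT libraries. The 1 gene without overlap, against 3.57%, was Jchain. It was at 0 to 0.0630 FPKM in WT, and KO 1 to KO 4 held 0.740, 0.0783, 0.286 and 0.446 FPKM. Most of the summed KO signal outside KO 2 was Igkc, an immunoglobulin light chain gene. Igkc was at 0 to 0.922 FPKM in WT, and KO 1 to KO 4 held 11.3, 0.489, 6.49 and 5.63 FPKM. The gene reached the minimum only through KO (limma adjusted p = 0.241, and 0.0100 without KO 2). The B cell gene Ms4a1 was listed at 0 in 7 libraries and at 0.00120 FPKM in KO 3.

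Hepatocyte and housekeeping genes overlapped between the groups. The sums of 11 hepatocyte genes were 34472 to 48433 FPKM in WT and 37941 to 55761 FPKM in KO, with 0 of 11 past the threshold and 0 at an unadjusted limma p under 0.05 (smallest p for Ass1, limma adjusted p = 0.600). The sums of 8 housekeeping genes were 637 to 785 FPKM in WT and 558 to 768 FPKM in KO, with 0 of 8 past either (smallest p for Tbp, limma adjusted p = 0.770). Of 5 red cell genes 1 was tested (Alas2, limma adjusted p = 0.947), and the globin genes were at most 0.267 FPKM. The sums of 4 cholangiocyte genes were at most 0.462 FPKM, with 0 tested. Among them Sox9, a transcription factor gene, was at 0.134 to 0.462 FPKM in WT and 0.0157 to 0.123 FPKM in KO, below WT in all 4.

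Of the 6 ligand genes of the Kupffer niche 5 had a positive change, against 51.5% of all genes above 0. No overlap was seen in 2, against 3.57%, and 0 were tested. Of the ligands of the Csf1r product, Csf1, the 1 gene with a negative change, lay at 0.266 to 1.52 FPKM in WT and 0.358 to 0.783 FPKM in KO, and Il34 at 0 to 0.00695 FPKM in WT and 0.0337 to 0.408 FPKM in KO. Csf1 overlapped between the groups and Il34 did not. Gdf2, a ligand of the BMP family, did not overlap either, with 0.0985 to 0.569 FPKM in WT and 0.706 to 1.32 FPKM in KO. All 10 cytokine genes of macrophages had a positive change, against 51.5%, but 5 were listed at 0 in all WT libraries, where no negative change was possible. The sums were 4.07 to 9.07 FPKM in WT and 12.8, 7.86, 12.9 and 10.5 FPKM in KO 1 to KO 4, with KO 2 inside the WT range. Most of this signal was Il18, at 3.36 to 8.89 FPKM in WT and 7.11 to 10.6 FPKM in KO. KO 1, KO 3 and KO 4 exceeded every WT library in 5 of the 10 genes, against 6.84%. With KO 2 included, 1 had no overlap, against 3.57%. The mean log2(FPKM + 1) of the 10 genes was 0.31 to 0.36 in WT and 0.36 to 0.85 in KO, with KO 2 just above the highest WT library. Of these 1 was tested (Il18, limma adjusted p = 0.773), and Tnf, Il6 and Il10 were listed at 0 in all WT libraries and at most at 0.267 FPKM in KO. Il1b was at 0 to 0.316 FPKM in WT, and KO 1 to KO 4 held 0.716, 0.0335, 2.17 and 0.584 FPKM. Cxcl16 was at 0.133 to 0.398 FPKM in WT, and KO 1 to KO 4 held 0.819, 0.295, 1.15 and 1.12 FPKM. For both genes KO 2 alone lay inside the WT range.

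**Figure D4:**
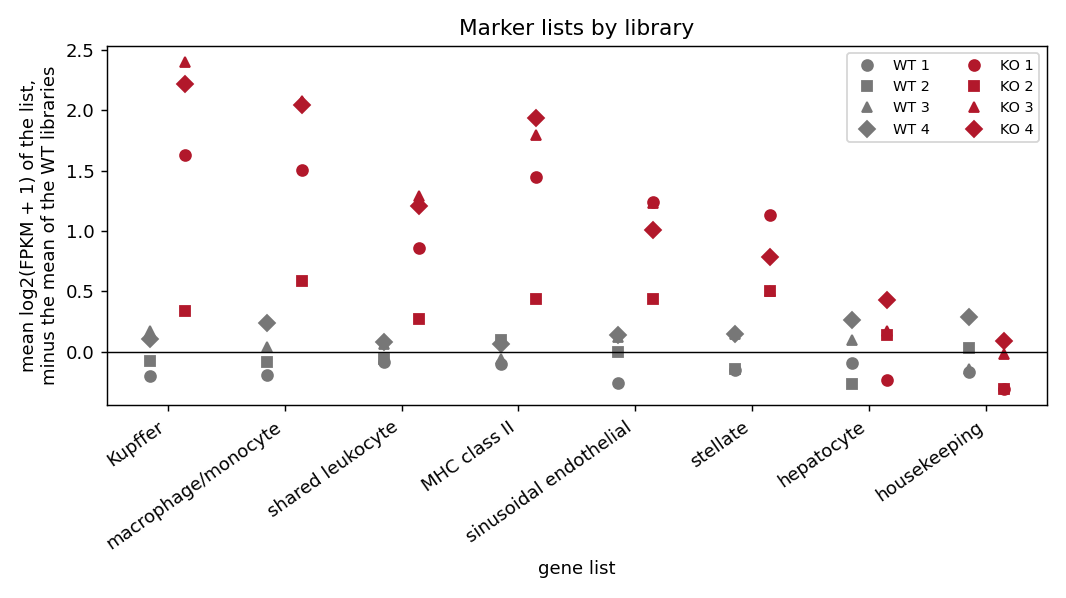
Mean log2(FPKM + 1) of each gene list in each library, minus the mean of the 4 WT libraries, with WT in grey and KO in red and a symbol for each replicate number. The Kupffer, macrophage and MHC class II lists show the widest separation of KO 1, KO 3 and KO 4 from WT. The shared leukocyte, endothelial and stellate lists show a smaller one, and hepatocyte and housekeeping lists overlap.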

How the data were processed

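RNA of 8 frozen liver samples was isolated with Trizol and a Qiagen kit and made into Nugen libraries, per the labels' protocols. The authors deposited FPKM values for 35638 genes. TopHat, edgeR and mm10 are named, without versions or roles, in the submitters' processing notes. Which program computed FPKM, on which annotation, and whether strand was used is not given in the sources used here. Depth is an estimate, read from step sizes among low values of 12059 genes with 1 transcript of at least 400 nt (52.8 to 57.0% of them within 0.1 of a whole read, 20% by chance). Its search was capped after 2 libraries had returned doubled estimates, and reads per gene were not rebuilt. Of the gene IDs 99.4% matched GENCODE M21 (GRCm38, the build mm10), the source of coordinates.

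Values were taken as log2(FPKM + 1), which understates changes of low genes. The 11266 genes with a mean of at least 1 FPKM were fitted with limma 3.58.1 in R 4.3.3, with genotype as the term and a trend on level. Tests were two-sided, adjusted by Benjamini-Hochberg over all genes fitted, with a threshold of 0.05. The fit was tested on simulated data. Gene groups are described by counts, sums and medians without a test. The 34 markers and the 15 further lists were chosen with earlier results of these data known, and 5 listed genes were not analysed here. All 34 markers are named, and of each other list up to 3 genes past the threshold or else the tested gene with the smallest p. Further genes of those lists were named after their values were seen. Alternatives were other pseudocounts, minima and scalings, array weights, no trend, the replicate number as a block, and libraries left out. The 2 that combine no minimum with another change, and sums without 1 gene, were added after seeing the data. Figures used Python 3.11.15 with matplotlib 3.10.9.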

Additional observations from a re-analysis of the deposited data

Results flagged for a closer look

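Among 74 groups of 4 values checked (each marker and each group mean in WT and in KO, on the log2 scale), 6 held a library far from the other 3. Chance gives about 1 in 20 for independent, continuous values. The markers share libraries, and 3 values at 0 with 1 above it are always flagged, so the count cannot be set against that rate. KO 2 was far below the other KO libraries in Cd14 (0 FPKM against 1.57 to 1.66 FPKM), Ctss (1.37 FPKM against 8.78 to 11.3 FPKM) and Cd53 (0.135 FPKM against 1.28 to 1.59 FPKM). In WT 4, Fcgr1 was at 0.150 FPKM and Ly86 at 0.0761 FPKM, while each was listed at 0 in the other WT libraries. In WT 2, Irf8 was at 0.271 FPKM against 0.138 to 0.154 FPKM. The WT values are those of a few reads.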

How the results depend on the processing

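The number of markers past the threshold (2 rose) depended on the settings more than their direction did. It was 1 with a pseudocount of 5 FPKM and with a minimum of 5 FPKM, 0 with no minimum, and from 0 to 14 when a library was left out (14 without KO 2). It was 13 without WT 4 and KO 2 together, 17 with no minimum and without KO 2, and 1 (Mpeg1) with no minimum and median ratio scaling. No alternative called a marker lower. Over all genes, 46 were higher and 40 lower. A pseudocount of 5 FPKM gave 27 higher, and a minimum of 5 FPKM gave 14 higher and 13 lower. No minimum gave 26 lower. Leaving out a library gave from 20 to 92 higher and from 14 to 44 lower, and leaving out WT 4 and KO 2 together gave 75 higher. No minimum without KO 2 gave 240 higher, and no minimum with median ratio scaling gave 26 higher and 21 lower. The cause was not tested. The mean differences of the Kupffer, macrophage and leukocyte genes (1.64, 1.55 and 0.91 on the log2 scale) were 2.77, 2.50 and 2.001 with a pseudocount of 0.1 FPKM and 0.82, 0.78 and 0.35 with 5 FPKM, as the construction of the scale implies. Hpgd, near 0, changed sign with a pseudocount of 5 FPKM (0.0003), quantile normalization (0.0491), median ratio scaling (0.0156, also with no minimum), array weights (0.049), and with libraries left out (from -0.12 to 0.11). The ratio of the Kupffer sum in KO 2 to its leukocyte sum moved from 0.637 to 1.83 without Lcp1, and to its endothelial sum from 0.477 to 0.751 without Fcgr2b. Equal sums moved the median of all genes to -0.12 from -0.03.

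With the replicate number as a block, 0 markers were called (Mpeg1 limma adjusted p = 0.0596, Lcp1 0.0961), and over all genes 16 were higher and 8 lower. The correlation of deviations between same-numbered samples was 0.0964, -0.07, 0.02 and 0.25 for numbers 1 to 4, over 0.1 for number 4 alone. WT 1, WT 3, WT 4 and KO 4 correlated best with the sample of their own number and the other 4 samples did not. Since not every pair was over 0.1, the samples were not treated as paired. Most markers lay under 1 FPKM in WT, where a few reads decide a value.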
